A study of Mus musculus with 18 samples.

Results

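The nuclear genes that encode the subunits of oxidative phosphorylation complexes I to V were compared between the uterus and the ovary of wild-type mice and mice with the ARE+/- or ARE-/- genotype. Members were chosen by name, from symbols of the Nduf (A, B, C, S and V series), Sdh, Uqcr, Cox5 to Cox8 and Atp5 families. The Cox4 genes Cox4i1 and Cox4i2 did not match the letters of the name rule. Pseudogenes were left out, and a mean of at least 1 CPM in the tissue (reads of a gene scaled to a common library total) was required. Of 95 gene identifiers with such names, 8 carried a pseudogene name, 4 were annotated as pseudogenes and 1 was a second, read-through identifier of Atp5o, which left 82 candidates. In the uterus 79 passed the CPM minimum and in the ovary 78, out of 57010 genes counted in all. The 79 comprised 37 genes of complex I, 4 of complex II, 8 of complex III, 13 of complex IV and 17 of complex V. Cox8b, with a mean of 2.60 CPM in the uterus and 0.769 CPM in the ovary, was a member in the uterus alone.

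All mice were C57B6/J and 20 to 25 weeks old, and total RNA of uterus and ovary was sequenced, with 3 libraries for each of the genotypes WT, ARE+/- and ARE-/- in each tissue, 18 in all. In the mouse line of this name an AU-rich element is deleted from the 3′ untranslated region of the interferon gamma gene, a background statement that the labels do not spell out. The labels name no treatment and no estrous stage, and do not say which uterus and which ovary came from 1 animal. P-values therefore measure the spread between these libraries, whatever its source. Libraries held 33185496 to 49720354 counts, and members took 0.563% to 1.09% of them. In bulk tissue, fewer cells of a type and less RNA per cell cannot be told apart.

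In the inner mitochondrial membrane, complex I (NADH dehydrogenase) and complex II (succinate dehydrogenase) pass electrons through ubiquinone to complex III, and complex III passes them by cytochrome c to complex IV (cytochrome c oxidase). Complexes I, III and IV pump protons, and complex V (ATP synthase) makes ATP as protons flow back. Most subunits are nuclear genes, and 13 are encoded by mitochondrial DNA, which contributes to every complex except complex II. Several complex IV subunits come as a pair of genes, 1 broadly expressed and 1 typical of heart, skeletal muscle or brown fat. In the ovary, mitochondria of the steroid-producing cells also start steroid synthesis.

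The promoters of 5 complex IV genes and 1 complex I gene are shown because the results turn on their pairs and on Ndufa10. Each is the RefSeq window (assembly GRCm38.p6) from 250 bases before to 50 bases after the gene's start, written 5′ to 3′ on the gene's strand. Capitals mark matches, on either strand, to the core motifs of the factors NRF1, the ETS family (which includes GABPA) and YY1, and to the TATA box, each spelled out after the sequences.
Cox8a, chr19:7217567-7217866, - strand: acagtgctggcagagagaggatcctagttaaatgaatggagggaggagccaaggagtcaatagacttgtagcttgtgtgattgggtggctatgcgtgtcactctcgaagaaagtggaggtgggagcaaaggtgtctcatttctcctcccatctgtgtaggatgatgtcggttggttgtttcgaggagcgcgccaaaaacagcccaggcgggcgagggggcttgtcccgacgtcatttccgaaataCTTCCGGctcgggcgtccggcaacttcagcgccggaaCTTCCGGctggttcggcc
Cox8b, chr7:140900397-140900696, - strand: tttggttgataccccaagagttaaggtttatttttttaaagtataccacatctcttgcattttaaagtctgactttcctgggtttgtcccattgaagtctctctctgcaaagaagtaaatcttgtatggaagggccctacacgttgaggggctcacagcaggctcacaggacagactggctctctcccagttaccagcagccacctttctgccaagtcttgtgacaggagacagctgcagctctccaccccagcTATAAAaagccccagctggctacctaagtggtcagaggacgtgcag
Cox7a2, chr9:79759804-79760103, - strand: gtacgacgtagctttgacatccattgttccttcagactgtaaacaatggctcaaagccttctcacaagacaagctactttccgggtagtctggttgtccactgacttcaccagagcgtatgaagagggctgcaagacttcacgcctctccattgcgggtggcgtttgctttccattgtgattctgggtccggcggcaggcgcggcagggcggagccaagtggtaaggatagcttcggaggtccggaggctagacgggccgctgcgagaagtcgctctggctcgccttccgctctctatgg
Cox7a1, chr7:30183921-30184220, + strand: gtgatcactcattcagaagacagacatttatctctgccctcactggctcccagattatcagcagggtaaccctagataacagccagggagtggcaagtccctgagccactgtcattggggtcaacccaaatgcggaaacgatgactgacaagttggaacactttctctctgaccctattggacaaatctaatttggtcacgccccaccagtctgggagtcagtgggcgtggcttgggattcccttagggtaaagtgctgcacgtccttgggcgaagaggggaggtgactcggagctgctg
Cox6a1, chr5:115348909-115349208, - strand: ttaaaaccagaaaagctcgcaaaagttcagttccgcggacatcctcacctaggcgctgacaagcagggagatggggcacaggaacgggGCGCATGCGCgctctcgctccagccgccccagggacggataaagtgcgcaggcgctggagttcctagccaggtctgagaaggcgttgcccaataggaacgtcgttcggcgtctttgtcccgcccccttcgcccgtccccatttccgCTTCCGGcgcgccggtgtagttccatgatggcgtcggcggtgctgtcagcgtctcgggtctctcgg
Ndufa10, chr1:92473709-92474008, - strand: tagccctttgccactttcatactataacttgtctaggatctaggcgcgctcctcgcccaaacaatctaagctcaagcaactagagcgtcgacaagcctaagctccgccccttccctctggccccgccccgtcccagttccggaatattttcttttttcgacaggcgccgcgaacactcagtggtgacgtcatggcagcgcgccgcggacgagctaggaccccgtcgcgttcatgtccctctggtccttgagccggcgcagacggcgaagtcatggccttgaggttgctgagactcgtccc

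Broadly expressed Cox8a held 19 CG dinucleotides and 56.0% G and C in its window, against 2 and 48.3% for Cox8b, its muscle and brown fat counterpart. Cox7a2 held 20 CG dinucleotides and Cox7a1 7. Cox6a1 held 32, with overlapping NRF1 core matches and an ETS core match, and Ndufa10 held 27 with none of the 4 motifs. A RefSeq window was found for 65 of the 79 members, whose median was 19 CG dinucleotides and 57.3% G and C, against 7 and 52.7% over all 27025 genes with a window. The NRF1 core, spelled GCATGCGC, occurred in 15.4% of the members' windows and 2.80% of all windows. The ETS core, spelled CCGGAAG, occurred in 23.1% of the members' windows against 9.12% of all. The YY1 core, spelled AAGATGG, occurred in 13.8% of the members' windows against 6.48%. The TATA box, spelled TATAAA, occurred in 9.23% of the members' windows against 14.2%. A match is a run of letters, not a site shown to be bound.

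The values below are CPM scaled by TMM, a normalization that sets most genes to no change, and levels of different genes are compared per kilobase of annotated exon. On that scale Atp5b, the catalytic beta subunit of ATP synthase, had the highest level of complex V in both tissues, at 355 CPM per kb in the uterus and 433 in the ovary. Atp5s, a coupling-factor-like gene, had the lowest, at 4.70 and 6.33. In complex I of the uterus the highest level was that of Ndufa4 (183 CPM per kb). Ndufa4 is named for complex I but is now regarded as a subunit of complex IV. The lowest member of complex I was Ndufa4l2 in the ovary (7.18) and Ndufb2 in the uterus (9.62), where annotated length enters: Ndufb2 has 4.38 kb of exon. In complex II, Sdhb, the iron-sulfur subunit, was highest in the uterus (79.2) and Sdha, the flavoprotein, in the ovary (98.8), and the membrane anchor Sdhc was lowest in both (28.9 and 29.5). In complex III the hinge protein Uqcrh was highest (228 and 145) and Uqcrq lowest (41.5 and 36.9). In complex IV Cox6a1 was highest (321 and 307). Because strand was not used in counting, reads of overlapping genes cannot be told apart, and 23 of the 79 members share exon bases with another gene.

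The muscle-type genes of complex IV were near the floor in both tissues. Cox7a1 averaged 1.19 CPM in the uterus and 2.65 in the ovary, just inside the minimum in the uterus on unscaled CPM (1.10, with the highest scaled level, 3.28, in uterus ARE-/- replicate 1), whereas Cox6a2 lay just outside it at 0.775. Cox7b2 had a count in 2 of 18 libraries and Cox8c, a testis gene, averaged 0.0319 CPM in the ovary and had no count in the uterus. In WT uterus, Cox6a2 made up 0.186% of the length-scaled sum of Cox6a1 and Cox6a2, Cox8b 0.535% of the Cox8 pair, and Cox7a1 2.01% of the sum with Cox7a2.

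The library uterus ARE-/- replicate 1 stood apart. It had a summed level of 13298 CPM over the 78 members found in both tissues, whereas the other 8 uterus libraries lay between 5874 and 7806 CPM and the 9 ovary libraries between 6644 and 7378 CPM. Compared with the mean of the other 8 uteri, the level in this library was above all 8 for 77 of the 79 members, with a median fold of 2.11. Among all 18942 genes of at least 1 CPM in the uterus, 27.8% were above all 8 others and the median fold was 0.951. The exceptions among members were Ndufs1, the largest core subunit of complex I, at 1.06-fold and Ndufa4l2 at 1.15-fold. By complex the median fold was 2.17 for complex I, 1.46 for II, 2.04 for III, 2.39 for IV and 2.08 for V. The count of 77, the median over all members and the complex IV median include Cox8b and Cox7a1. Cox8b reached the CPM minimum through the ARE-/- group, and Cox7a1 passed it narrowly, with its highest uterus level in this library. Their folds were the largest of all members and are not independent of how they became members. The place of complex IV above the other complexes is therefore not interpreted. Sdha, at 255 CPM against at most 230, was among the least raised (1.34-fold), and Uqcrq, at 198 against at most 79.9, among the most (3.27-fold). The counts, medians and precision of the uterus comparisons are given with and without it.

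Markers of several other cell types were also high in uterus ARE-/- replicate 1. The summed level of 11 adipocyte markers was 18824 CPM there, against 82.3 to 2316 in the other uteri. Adipoq, an adipocyte hormone, stood at 1032 CPM against at most 164, while Ucp1, which defines brown fat, was at 0.171. The 6 erythroid markers summed to 7468 CPM against at most 1377, the 12 striated muscle markers to 452 against at most 171, and the 10 smooth muscle markers to 20281 against at most 9764. Of the markers of ovarian cells, 12 luteal and theca cell markers summed to 493 CPM against 146 to 215, and 10 oocyte markers to 32.1 against at most 4.59. The 10 granulosa cell markers were not, at 329 CPM against 132 to 817 in the other uteri. Also inside the range of the other uteri were uterine epithelium and gland (3450 CPM), oviduct and ciliated cell (252), T cell (116) and macrophage (2239) markers. The difference varied with annotated length as well, though not in 1 direction throughout. Members under 1 kb were a median 1.16 log2 units above the mean of the other 8 uteri, those of 1 to under 2 kb 0.91, and those of 2 to under 4 kb 0.49. Over all genes these medians were 0.23, 0.32 and -0.02. The 2 members of 4 kb or more had a median of 1.01, against -0.42 over all genes. Ribosomal protein genes had a median of 0.83 under 1 kb and 0.81 at 1 to under 2 kb. The part of cell composition or of RNA length in the members' levels was not tested.

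**Figure D1:**
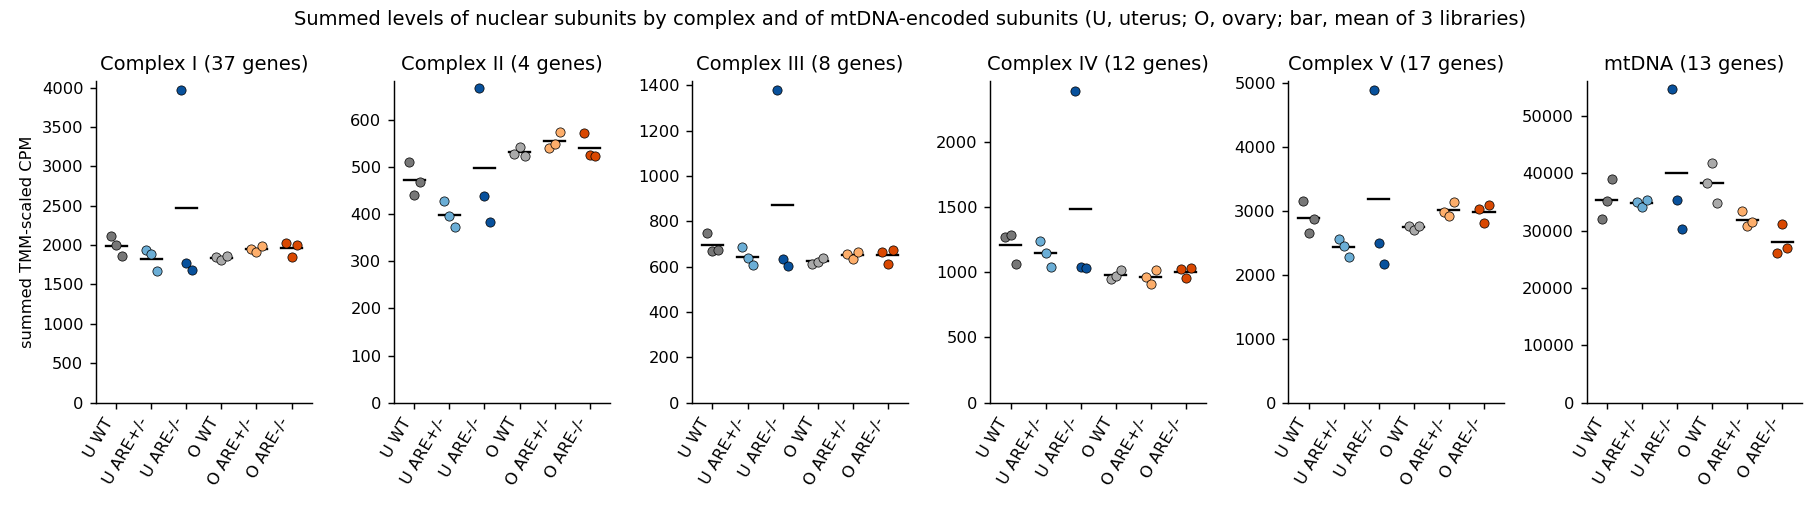
Summed TMM-scaled CPM of the nuclear subunits of complexes I to V and of the 13 mtDNA-encoded subunits (y axes, from 0), by tissue and genotype (x axis; points are libraries, bars are means of 3). The first point of uterus ARE-/- stands above all other libraries for each nuclear complex, and the mtDNA-encoded sum is 26063 to 31139 in ARE-/- ovaries against 34861 to 41864 in WT ovaries.

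Uterus ARE-/- and WT were compared to ask how the homozygous genotype relates to these genes. With all libraries, 0 of 79 members passed edgeR's quasi-likelihood test at an adjusted p under 0.05, where 3.75% of 24277 genes did. An unadjusted p under 0.05 was found for 4 members and for 4819 of all genes. After Cox8b, described below, Ndufa6 (0.66, adjusted p = 0.19) and Cox7a2l (0.60, adjusted p = 0.24) had the smallest p, and without replicate 1 their log2 fold changes were 0.36 (adjusted p = 0.34) and 0.39 (adjusted p = 0.40). The median log2 fold change of the members was 0.31, with 74 above 0, against 0.04 over all genes. Without replicate 1 the median was -0.26, with 11 of 79 above 0, against -0.01 over all genes. The sign of the members' median in this comparison thus rested on 1 library. The separate ARE-/- libraries showed it directly: relative to the WT mean, the members' median was 1.00 in replicate 1, -0.19 in replicate 2 and -0.27 in replicate 3 (log2 of CPM plus 1). WT libraries lay at 0.09, -0.02 and -0.10.

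**Figure D2:**
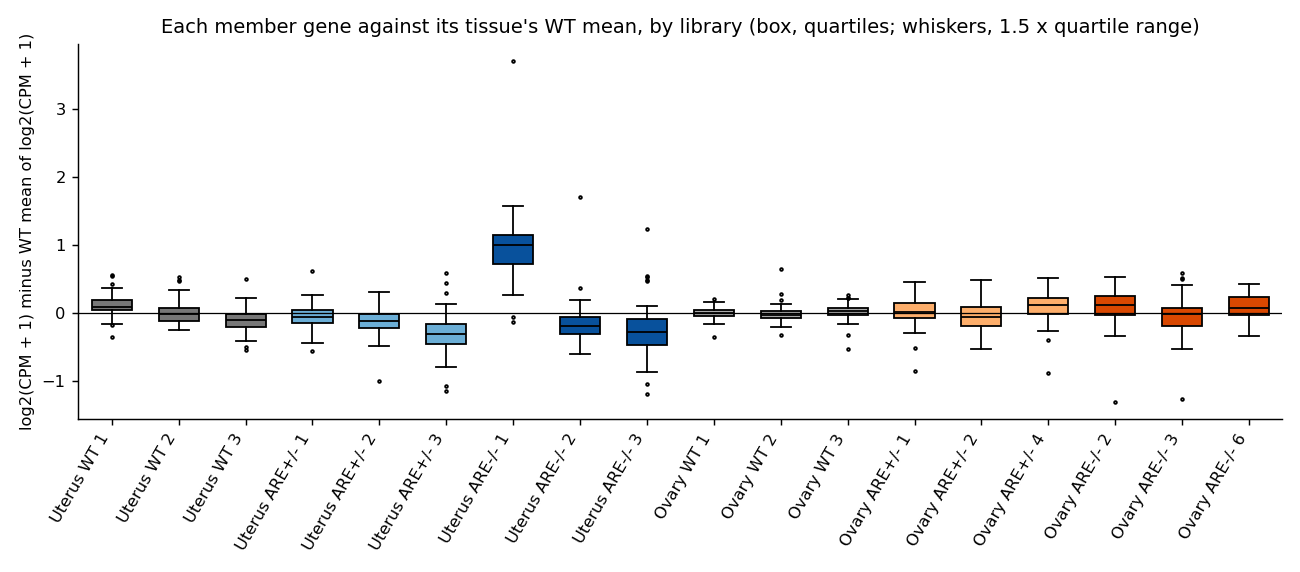
Difference of each member from the mean of its tissue's WT libraries, as log2(CPM + 1) (y axis), for each of the 18 libraries (x axis; boxes are quartiles with the median, whiskers reach 1.5 times the quartile range, and dots are members beyond them). The uterus ARE-/- 1 box lies near 1.00 while the boxes of ARE-/- 2 and 3 lie below 0, and ovary boxes lie close to 0.

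Without that library, 0 of 79 members were called higher and 1 lower, where 973 and 130 (0.516%) of 25188 genes were. The member called lower was Atp5g1 (now Atp5mc1), 1 of 3 genes that encode the same c-ring subunit of ATP synthase with different import signals. Its level in WT uterus was 101, 82.6 and 104 CPM, in ARE-/- 156, 62.5 and 45.7, and in ARE+/- 73.2, 73.1 and 56.6. Every ARE+/- library, and ARE-/- libraries 2 and 3, lay below every WT library, and ARE-/- 1 lay above them. Without ARE-/- 1 it was lower in ARE-/- than WT by a log2 fold change of -0.83 ± 0.19 (SE, adjusted p = 0.047, edgeR). With all libraries the log2 fold change was -0.10 (adjusted p = 0.92). Complex medians without that library ran from -0.19 (complex II) to -0.30 (complex V), each below 0.

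**Figure D3:**
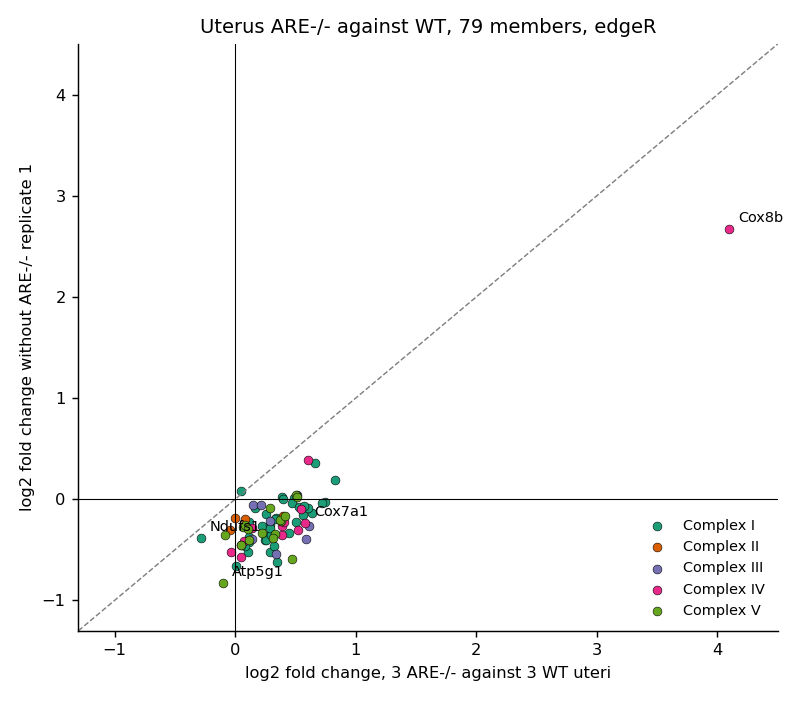
Log2 fold change of the 79 members in uterus ARE-/- against WT with all 3 ARE-/- libraries (x axis) and without ARE-/- replicate 1 (y axis), coloured by complex; the dashed line marks equal values. Most points lie right of 0 and below 0, while Cox8b is high in both, at 4.09 and 2.67.

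Cox8b is described by its levels alone, because it reached the 1 CPM minimum in the uterus through the ARE-/- group, where it is high, and so had to differ. Its level was 0.113, 0.269 and 1.01 CPM in WT, 1.18, 0.591 and 0.231 in ARE+/-, and 17.5, 3.64 and 2.33 in ARE-/-. All 3 ARE-/- libraries lay above all 6 others, also with replicate 1 set aside. It did not pass edgeR's test with that library (adjusted p = 0.064) or without it (0.13), was the 1 member that DESeq2 called, and was the 1 uterus member with an adjusted p under 0.05 in the authors' deposited table across the 3 genotypes. None of these tests is independent of how it became a member. In the same libraries Adipoq was 4.54, 6.68 and 4.03 CPM in WT, 46.1, 31.4 and 23.7 in ARE+/-, and 1032, 164 and 86.1 in ARE-/-. In the ovary, where it is no member, Cox8b was highest in ARE-/- replicate 3 (3.93 CPM), the ovary library with the highest Adipoq (167). It stood at 0.0472 CPM in ARE-/- replicate 6, with the lowest Adipoq (2.83). The 2 genes did not keep 1 order, as WT replicates 1 and 3 had 0 Cox8b counts and ARE-/- replicate 6 had 2. ARE+/- replicate 1 had 36 counts against 164 in ARE-/- replicate 3, with summed adipocyte markers of 1961 and 2265 CPM. The part of adipose tissue in the Cox8b level was not tested.

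Uterus ARE+/- and WT were compared to ask about 1 altered allele. None of 79 members was called, where 1.14% of genes were, and DESeq2 called 0. An unadjusted p under 0.05 was found for 1 member and for 3418 of 24277 genes. The median log2 fold change was -0.15, with 11 above 0, against 0.01 over all genes, and it was -0.15 without ARE-/- replicate 1. For 19 members (24.1%) all 3 ARE+/- libraries lay below all 3 WT libraries, against 13.2% of all genes tested, and for none above. Of these 19, 9 were complex V genes. Sdha, for example, was 230, 209 and 196 CPM in WT and 188, 170 and 159 in ARE+/- (log2 fold change -0.29 ± 0.19, adjusted p = 0.54 by edgeR). Ndufa4l2, a hypoxia-inducible paralog of Ndufa4, had the smallest p: 14.6, 11.8 and 13.8 CPM in WT against 8.72, 6.15 and 5.49 in ARE+/- (log2 fold change -0.97 ± 0.32, adjusted p = 0.21). In ARE-/- uteri it was 12.8, 8.64 and 19.7, overlapping both. Ndufs1 (-0.35, adjusted p = 0.43) and Cox7a1 (-1.04, adjusted p = 0.50) followed. The summed smooth muscle markers were 8858 to 9764 CPM in WT and 5055 to 5742 in ARE+/- uteri, and the summed macrophage markers 590 to 826 and 1357 to 1822. Their part in the lower member levels was not tested.

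Between ARE-/- and ARE+/- uteri, 0 of 79 members were called and 0% of all genes, and DESeq2 called 1 member. An unadjusted p under 0.05 was found for 3 members and for 1182 of 24277 genes. Cox8b (3.55), Ndufa4l2 (1.02) and Cox7a1 (1.62) had the smallest p, with adjusted p from 0.66 to 0.96. Without ARE-/- replicate 1 these log2 fold changes were 2.14, 1.06 and 0.81, and 0 members were called. Cox7a1 passed the uterus minimum narrowly. It was highest in ARE-/- replicate 1, at 3.28 CPM against a median of 0.750 in the other 8 uteri. Its value here, like that of Cox8b, is thus not independent of how it became a member. The median log2 fold change was 0.48, with 79 above 0, and -0.06, with 15 above 0, without ARE-/- replicate 1. The precision in the uterus turned on that library. For ARE-/- against WT the median SE was 0.32 with it and 0.16 without it. The 95% interval lay within 1 log2 unit of 0 for 33 members and within 0.5 for 1 with it, and for 68 and 21 without it. For ARE+/- against WT, which shares the fit, the median SE was 0.32 with it and 0.14 without it. Members with an unadjusted p under 0.05 numbered 1 of 79 with it and 10 of 79 without it. Over all genes, 3418 of 24277 and 5221 of 25188 had such a p.

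In the ovary the median SE was 0.10. For ARE-/- against WT the 95% interval lay within 1 log2 unit of 0 for 77 of 78 members and within 0.5 for 61. Of the 78, 5 rose and 0 fell, where 6.31% and 4.15% of 24457 genes did, so the share was close to that of all genes. The median log2 fold change was 0.08, with 49 above 0, against 0.02 over all genes. Separation without overlap was found upward for 17 members (21.8%) and downward for 5 (6.41%), against 15.3% and 15.2% of all genes.

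Of the 5, 3 belong to complex I, and the plot of the called ovary members shows all 5. Ndufa10, an accessory subunit of the membrane arm, was 67.5, 60.95 and 61.5 CPM in WT, 86.8, 88.6 and 81.5 in ARE+/-, and 85.1, 82.6 and 84.7 in ARE-/-. Both altered genotypes lay above WT and did not separate from each other. Its log2 fold change was 0.43 ± 0.08 in ARE-/- (SE, n = 3 against 3, edgeR adjusted p = 0.0088) and 0.44 ± 0.08 in ARE+/- (adjusted p = 0.027). Ndufs7, a core subunit that carries an iron-sulfur cluster, was 45.5, 44.3 and 44.6 CPM in WT, 50.2, 49.3 and 50.4 in ARE+/-, and 54.1, 63.6 and 55.4 in ARE-/-. The 3 groups did not overlap and lay in the order WT, ARE+/-, ARE-/-, with an ARE-/- log2 fold change of 0.38 ± 0.08 (adjusted p = 0.020). Ndufv3, an accessory subunit of the NADH-oxidizing arm, was 40.8, 44.2 and 41.6 in WT against 61.1, 60.8 and 49.1 in ARE-/- (0.45 ± 0.11, adjusted p = 0.032).

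Cox7a2l, counted here under complex IV by its name, was 114, 140 and 128 CPM in WT, 162, 173 and 164 in ARE+/-, and 156, 192 and 170 in ARE-/- (log2 fold change in ARE-/- 0.46 ± 0.10, adjusted p = 0.020). Every altered-genotype library lay above every WT library. Atp5o, the stalk subunit that confers oligomycin sensitivity, was 84.7, 85.2 and 81.0 in WT and 100.2, 102 and 111 in ARE-/- (0.33 ± 0.08, adjusted p = 0.030). Atp5o shares 29.0% of its exon bases with a read-through identifier and 19.6% with an opposite-strand gene, D430001F17Rik, so its reads cannot be assigned to it alone. The same 5 genes were those with an adjusted p under 0.05 in the authors' deposited table for the ovary, from the same libraries, where 12.1% of all genes were. The count depended on single libraries and on the groups fitted. It was 1 with the 2 groups alone, and 1 when WT replicate 1, WT replicate 3 or ARE-/- replicate 3 was left out. Leaving out WT replicate 2 gave 2, leaving out ARE-/- replicate 2 gave 3, and leaving out ARE-/- replicate 6 gave 5 (4 higher, 1 lower). Ndufa10 in ARE-/- kept its call in all 6 of these leave-outs, and Atp5o in 0. Other lists moved with the genotype in the ovary. The 8 oviduct and ciliated cell markers summed to 1519 to 2105 CPM in WT and 3110 to 3588 in ARE-/-, the 12 interferon gamma response genes to 279 to 344 and 2395 to 2842, and the 10 T cell markers to 9.41 to 11.7 and 46.9 to 105. Their part in the members' levels was not tested.

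**Figure D4:**
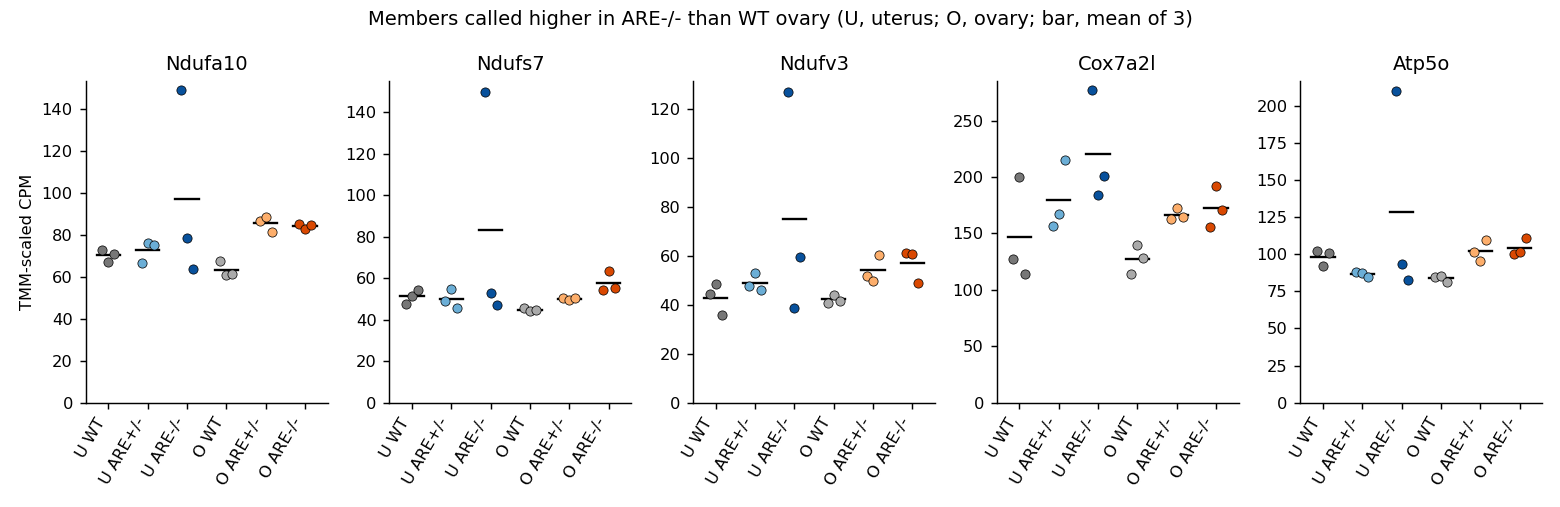
TMM-scaled CPM (y axes, from 0) of the 5 members called higher in ARE-/- than WT ovary, by tissue and genotype (x axis; points are libraries, bars are means of 3). In the ovary every ARE-/- point lies above every WT point, and in the uterus the first ARE-/- point stands apart from the rest.

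In ARE+/- against WT ovary, Ndufa10 was the 1 member of 78 called higher, and 0 were called lower, where 330 (1.35%) and 87 of 24457 genes were. Ndufa10 lost the call without any 1 library of the groups compared, and DESeq2 called 3 members. The median log2 fold change was 0.04, with 44 above 0. Between ARE-/- and ARE+/- ovaries 0 of 78 members were called, where 0.0491% of genes were, and DESeq2 called 0. An unadjusted p under 0.05 was found for 2 members and for 2051 of 24457 genes. Ndufs7 (0.22), Ndufa3 (0.21) and Ndufa7 (0.16) had the smallest p, with adjusted p from 0.56 to 0.60. The core genes outside these calls were given by range. Ndufs1, Ndufv1 and Ndufa9 of complex I were 90.7 to 102, 77.6 to 83.4 and 54.4 to 57.1 CPM in WT ovary, and 83.3 to 88.4, 88.9 to 96.9 and 55.2 to 65.3 in ARE-/-, none passing the test. Uqcrc1, a core protein of complex III, was 125 to 140 in WT and 149 to 161 in ARE-/-, without overlap and without passing the test. Cox4i1, a subunit of complex IV whose symbol the name rule does not match, was 220, 212 and 228 CPM in WT and 289, 269 and 268 in ARE-/- ovary (log2 fold change 0.34 ± 0.09, edgeR adjusted p = 0.033).

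Most subunits encoded by mitochondrial DNA fell in the ARE-/- ovary. Of 13, 10 fell and 0 rose in ARE-/- against WT, where 4.15% of all genes fell, with a median log2 fold change of -0.58 and all 13 below 0. Their summed level was 38370, 41864 and 34861 CPM in WT, 33442, 30872 and 31487 in ARE+/-, and 26063, 31139 and 27001 in ARE-/-. All altered-genotype libraries lay below all WT libraries. mt-Nd3 (-0.90 ± 0.13, adjusted p = 0.0036) and mt-Nd5 (-0.76 ± 0.10, adjusted p = 0.0028) of complex I fell most. The 3 that did not pass were the mitochondrial core subunits of complex IV, mt-Co1 (-0.22, adjusted p = 0.23), mt-Co2 (-0.36, adjusted p = 0.069) and mt-Co3 (-0.35, adjusted p = 0.076). The sum over mtDNA-encoded subunits was 5.73, 6.30 and 5.13 times that over nuclear members in WT ovary, and 3.56, 4.61 and 3.69 times in ARE-/-. The count that fell was 6 without WT replicate 1 and 7 to 12 without any other 1 library of the 2 groups. The summed luteal and theca cell markers, genes of steroid-producing cells, were 13161, 15831 and 10161 CPM in WT and 4177, 4033 and 10930 in ARE-/-. In the same order, the mtDNA-encoded sums of these ARE-/- libraries were 26063, 31139 and 27001 CPM. Macrophage markers summed to 426 to 569 CPM in WT and 931 to 1930 in ARE-/-, and the part of either cell type was not tested. Reads were counted without strand, so overlapping mitochondrial genes cannot be told apart fully.

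Cox7a1, the muscle-type partner of Cox7a2, had the largest negative log2 fold change of the ovary members, -1.34 ± 0.50 in ARE-/- (adjusted p = 0.12) and -1.01 ± 0.50 in ARE+/- (adjusted p = 0.36), and was not called. DESeq2 called it in ARE-/- (adjusted p = 0.040), and so did edgeR without ARE-/- replicate 6 (-2.04, adjusted p = 0.023). Its level was 3.57, 6.68 and 2.398 CPM in WT, 1.71, 2.87 and 1.66 in ARE+/-, and 0.991, 1.06 and 2.88 in ARE-/-. These libraries had Star, the cholesterol carrier of steroid-producing cells, at 576, 3130 and 379 CPM, at 400.1, 584 and 68.9, and at 136, 56.6 and 485. The library with the most Star had the most Cox7a1, and in the ARE-/- group replicate 6 was highest in both. Elsewhere the genes did not keep 1 order. ARE-/- replicate 2 had more Star than replicate 3 (136 against 56.6) and less Cox7a1 (0.991 against 1.06). ARE+/- replicate 1 had more Star than WT replicate 3 (400.1 against 379) and less Cox7a1 (1.71 against 2.398). Star is 1 of the 12 listed luteal and theca cell markers. The part of luteal and theca cells in the Cox7a1 level was not tested.

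WT ovary was compared with WT uterus to describe the tissues. Of 78 members 3 were higher in the ovary and 2 lower, where 13.3% and 11.9% of 26682 genes were. The median log2 difference was -0.15, with 19 above 0, against -0.02 over all genes, and it was 0.00 with 40 above 0 when libraries were scaled by total counts, a change that moved the median of all genes to 0.14. Cox7a1 was higher in the ovary (log2 difference 1.80 ± 0.58, adjusted p = 0.033), at 3.57, 6.68 and 2.398 CPM against 0.936, 1.97 and 0.704. Sdha, the catalytic subunit of complex II, was 284, 293 and 273 CPM in the ovary against 230, 209 and 196 (0.42 ± 0.13, adjusted p = 0.027). Atp5g3, another c-ring gene, was 223, 208 and 222 against 161, 113 and 120 (0.73 ± 0.24, adjusted p = 0.038). Lower in the ovary were Ndufa4l2, at 7.49, 7.001 and 4.89 against 14.6, 11.8 and 13.8 (-1.05 ± 0.30, adjusted p = 0.018), and Cox6c, at 133, 143 and 143 against 216, 295 and 223 (-0.81 ± 0.26, adjusted p = 0.031). None of these 5 overlapped between the tissues. Among all genes tested 24.2% lay apart upward and 21.6% downward, and among the 78 members 10 and 27 did. Without uterus WT replicate 3 the number of members called was 0, without any 1 WT ovary library 1, and without uterus WT replicates 1 or 2 it was 3 or 2.

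The number of tissue differences changed when 1 library of another genotype was left out of the shared fit. Without uterus ARE-/- replicate 1, 7 members were higher and 19 lower in WT ovary, where 16.1% and 14.7% of 27769 genes were. The lower genes then included Ndufa4 (-0.62 ± 0.10), Atp5g1 (-0.75 ± 0.15), Uqcrh (-0.50 ± 0.10) and Cox7a2 (-0.42 ± 0.09), and the higher ones Ndufs3, Ndufs4 and Uqcrfs1, the Rieske protein. With the 6 WT libraries alone 6 were higher and 18 lower, where 16.9% and 15.2% of 23339 genes were.

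**Figure D5:**
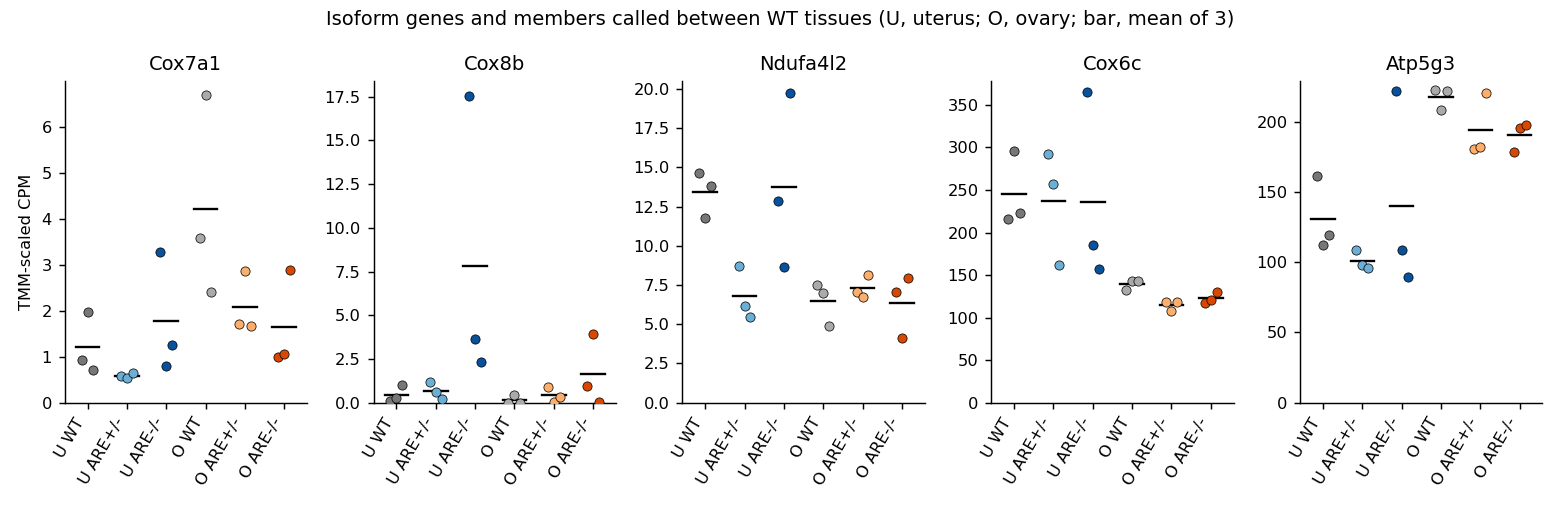
TMM-scaled CPM (y axes, from 0) of Cox7a1, Cox8b, Ndufa4l2, Cox6c and Atp5g3 by tissue and genotype (x axis; points are libraries, bars are means of 3). Cox8b is highest in the first uterus ARE-/- library at 17.5 CPM, Cox7a1 in a WT ovary at 6.68 CPM, and Atp5g3 is above 178 CPM in every ovary library.

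Isoform use differed between the tissues for the c-ring genes. The log2 ratio of Atp5g2 to Atp5g3, per kilobase, was 0.07, 0.54 and 0.20 in WT uterus and -0.75, -0.70 and -0.67 in WT ovary, and over all genotypes every uterus library lay above every ovary library. Ratios of Atp5g1 to Atp5g3 also separated the tissues, at -3.20 ± 0.23 (SD, n = 3) in WT uterus and -4.70 ± 0.08 in WT ovary. Within the ovary the Atp5g2 to Atp5g3 ratio was -0.28, -0.46 and -0.56 in ARE+/- and -0.21, -0.60 and -0.28 in ARE-/-, all above the 3 WT values. Ratios of Cox7a1 to Cox7a2 were -5.71 ± 0.68 in WT uterus and -3.48 ± 0.82 in WT ovary. The pair Cox6b1 and Cox6b2, the latter a testis-typical gene, had 5.63% Cox6b2 in WT uterus and 7.26% in WT ovary.

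The difference between the tissues in the effect of genotype was tested as an interaction. For ARE-/-, 0 of 78 members were called, where 0.169% of genes were, and the median was -0.20 (ovary minus uterus) with 8 above 0. An unadjusted p under 0.05 was found for 2 members and for 3752 of 26682 genes. Ndufa6 (-0.70), Cox7a1 (-1.92) and Ndufc1 (-0.76) had the smallest p, with adjusted p from 0.28 to 0.40, and without uterus ARE-/- replicate 1 they were -0.41, -1.11 and -0.17. The uterus part of the Cox7a1 value is not independent of how it became a member there. Without uterus ARE-/- replicate 1 the median was 0.31 with 72 above 0. Then 1 member was called higher by edgeR, Atp5g1 (1.06 ± 0.23, adjusted p = 0.046), and 0 lower, where 126 (0.454%) and 110 of 27769 genes were. For ARE+/-, 0 of 78 were called, where 0.00375% of genes were, and the median was 0.21 with 64 above 0. An unadjusted p under 0.05 was found for 2 members and for 2380 of 26682 genes. Ndufa4l2 (1.16), Atp5b (0.72) and Sdha (0.37) had the smallest p, with adjusted p from 0.46 to 0.58, and from 0.14 to 0.27 without uterus ARE-/- replicate 1. DESeq2 called 0 and 0 members in these 2 tests.

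Other genes of the pathway, from lists fixed for this work, showed where the members stood. Of 48 assembly factors, which build the complexes, 0 were called in ARE-/- against WT in either tissue, and their summed level in uterus ARE-/- replicate 1 was 1391 CPM against 938 to 1123 in the other uteri. The 19 tricarboxylic acid cycle genes summed to 3230 CPM there against at most 2249 in the other uteri. Glycolysis genes summed to 8308 against at most 4943, and mtDNA-encoded subunits to 54689 against at most 39088. Subunits outside the name rule and electron carriers summed to 1085 against at most 514. Of 20 regulators of mitochondrial biogenesis, 2 fell in ARE-/- against WT ovary, Hcfc1 and Nrip1, where 4.15% of all genes fell, and their sum in uterus ARE-/- replicate 1 (804.5 CPM) was the lowest of the uterus libraries. Gabpa, the ETS factor of the promoter search, was 91.3, 81.8 and 85.6 CPM in WT uterus and 52.4, 78.2 and 72.4 in ARE-/-. Nrf1 was 26.3 to 29.9 CPM in WT uterus and 26.9 to 30.1 in ARE-/-. Of 19 genes of the tricarboxylic acid cycle, Idh2 rose in ARE-/- ovary (log2 fold change 0.42, adjusted p = 0.023), and of 18 genes of glycolysis Gpi1 (0.45), Hk1 (0.48) and Pfkl (0.52) did, where 6.31% of all genes rose. The genes outside the members whose log2 CPM followed the members' mean most closely over the 18 libraries were Gm42420 (Pearson r 0.97), Aurkaip1 (0.96), Mrpl12 (0.96), Ndufaf8 (0.95) and Mrpl11 (0.95), of 12379 compared. Without uterus ARE-/- replicate 1 these were 0.90, 0.77, 0.87, 0.80 and 0.68 over 17 libraries. Gm42420 shares 3.31% of the exon bases of Ndufb2 on the same strand, so reads there count for both.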

How the data were processed

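RNA-seq libraries of 9 uteri and 9 ovaries were analysed from the deposited gene-level counts, which the authors made with featureCounts 2.0.4 on a GENCODE annotation, per the file headers. Both mates were counted singly, multimapping reads were counted for each gene and strand was not used. STAR, DESeq2 and the build mm10 are named in the submitters' processing notes, while the annotation in the headers has GRCm39 coordinates, so no coordinate of the counts is printed. The authors' deposited adjusted p-values come from a test across the 3 genotypes in each tissue. Sample columns left unused numbered 0.

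Here, counts were fitted with edgeR 4.0.16 (R 4.3.3; TMM scaling, low counts filtered, quasi-likelihood test, Benjamini-Hochberg adjustment over all genes tested, threshold 0.05), with the 9 libraries of a tissue, or all 18 between tissues. The procedure was tested on simulated data. DESeq2 1.42.0, other scalings, no filter, counts halved, the compared groups alone, a replicate block and leaving out each library were tried. Groups came from the labels, with 3 libraries each. The titles of uterus WT replicate 1 and ovary ARE-/- replicate 6 carry the word backup, which the labels do not explain. Members, lists and the rule for named genes (isoform pairs, core subunits, called members, smallest p, highest and lowest levels) were chosen with earlier results of these data known. Adding uterus ARE-/- replicate 1 to the libraries left out of some comparisons, and a block across tissues, was decided after seeing the data. Intervals are 95% confidence intervals. Promoters came from the GRCm38 reference, and overlapping exons from the exon coordinates given with the counts. One result that the rule for named genes would give is not reported here.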

Additional observations from a re-analysis of the deposited data

How the results depend on the processing

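Over 59 results, 414 of 515 alternatives kept the main result within set limits. A count of called members had to equal or lie close to the main count, so single calls could change. Medians and ratios had to keep their direction and move by less than the SD between libraries. Named genes had to keep their direction and their call. Uterus ARE-/- against WT had 1 member called by DESeq2, and so did ARE-/- against ARE+/-; leaving out each replicate gave 0 to 1 and 0 called, with medians from -0.26 to 0.52 and from -0.062 to 0.67. Uterus ARE+/- against WT stayed at 0, with medians from -0.21 to -0.08. Ovary ARE-/- against WT had 1 called with the compared groups alone and 1 to 5 over the leave-outs (medians 0.03 to 0.10). Ovary ARE+/- against WT had 3 called by DESeq2 and 0 without any 1 replicate, with medians from -0.037 to 0.069, below 0 without WT replicate 2 (-0.0098) and without ARE+/- replicate 4 (-0.037). WT ovary against WT uterus had 8 called and a median of 0.0041 on total counts, 24 with the compared groups alone and 0 to 26 over the leave-outs, 26 being without uterus ARE-/- replicate 1. The ARE-/- interaction had 0 to 1 called over the leave-outs, with medians from -0.43 to 0.31. The ratio of summed member CPM of WT ovary to WT uterus was 0.925 by TMM, 1.03 by total counts and 1.04 without mitochondrial genes. Atp5g1 in uterus ARE-/- against WT was -0.83 without ARE-/- replicate 1, and turned to 0.098 without ARE-/- replicate 2 and 0.17 without ARE-/- replicate 3. The log2 ratio of Cox7b2 to Cox7b moved from -11.68 to -9.19 in uterus and from -12.33 to -9.01 in ovary with a pseudocount of 0.1, which sets such ratios near 0 counts. The cause of the other changes was not tested.

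Replicate numbers were tested as a block. Deviations of same-numbered libraries correlated from -0.035 to 0.343 in the uterus and from -0.16 to 0.014 in the ovary. Every pair exceeded 0.1 only for uterus ARE-/- against ARE+/-, where the replicate block gave 0 called, as without it. With the block, ovary ARE-/- against WT had 1 called, ovary ARE+/- against WT 0 (median -0.026), and 2 of the 13 mtDNA-encoded subunits fell. A block within tissue could not be run for WT ovary against WT uterus, and a block across tissues gave 5 called.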
